A study of Mus musculus with 24 samples.

Results

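Muscle formation was followed through 8 mouse genes: Myod1, Myog, Myf6, Mef2a, Mef2c, Mef2d, Mymk and Des. They were chosen by name, through the symbols given for the array's probes. They held 14 of the 25697 probes of the array, and stand for 8 of the 16590 genes named there. All 8 genes were detected well enough to be tested, through 13 of their 14 probes. The third Mef2a probe was detected on none of the 24 arrays.

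RNA came from the gastrocnemius, the large calf muscle, of male mice, 1 Illumina array per mouse. The 4 treated or injected groups were mdx mice, which lack dystrophin, the protein that ties the fibre's cytoskeleton to its membrane. Of these, 5 mice ran voluntarily on wheels for 7 weeks and were injected with PBS, 5 were injected with sActRIIB-Fc, 5 received sActRIIB-Fc and ran, and 5 were injected with PBS alone. sActRIIB-Fc, a soluble activin receptor type IIB joined to an antibody tail that traps myostatin, activins and related ligands, was given at 5 mg/kg into the abdomen once a week over the 7 weeks. The fifth group was 4 wild-type mice of strain C57Bl/10ScSnJ, labelled as untreated, so the genotype and the PBS injection cannot be told apart. The age label is 6 to 7 weeks in all groups and does not say at which time point, and the labels name no genetic background for the mdx mice.

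Myogenic differentiation runs through a chain of basic helix-loop-helix transcription factors. Myod1 commits a satellite cell, the stem cell of muscle, to become a myoblast, Myog drives the myoblast out of the cell cycle into terminal differentiation, and Myf6 is the member of this family kept by mature fibres. They bind DNA sites called E-boxes and act together with the MEF2 factors, which have a site of their own. Of these, Mef2a, Mef2c and Mef2d are made in muscle. Mymk encodes myomaker, the membrane protein without which mouse myoblasts do not fuse, and Des encodes desmin, the intermediate filament that links the myofibrils of a fibre. In adult muscle Myod1, Myog and Mymk are known to be low and to return during regeneration.

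The promoters below show E-boxes, the kind of site the helix-loop-helix factors bind, in genes whose levels are given further on. The windows are RefSeq's on build GRCm38.p6, from 250 bases before to 50 bases after the start of transcription, 5′ to 3′ on the gene's strand. Capitals mark every E-box, written CANNTG, which reads the same on both strands. Of the 8 genes 5 had a window, and Myod1, Myf6 and Mymk did not. Chrna1 and Chrng, subunits of the acetylcholine receptor, are shown as targets of myogenic factors, and Des as one of the 8 genes whose level was not called different.
Myog, chr1:134289754-134290053, plus strand: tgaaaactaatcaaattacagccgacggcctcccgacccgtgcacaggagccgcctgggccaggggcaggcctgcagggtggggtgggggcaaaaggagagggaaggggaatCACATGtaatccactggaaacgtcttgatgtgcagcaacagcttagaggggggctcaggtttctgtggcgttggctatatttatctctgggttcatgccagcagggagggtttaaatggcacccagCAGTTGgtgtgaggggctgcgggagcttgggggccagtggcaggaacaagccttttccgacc
Chrna1, chr2:73580289-73580588, minus strand: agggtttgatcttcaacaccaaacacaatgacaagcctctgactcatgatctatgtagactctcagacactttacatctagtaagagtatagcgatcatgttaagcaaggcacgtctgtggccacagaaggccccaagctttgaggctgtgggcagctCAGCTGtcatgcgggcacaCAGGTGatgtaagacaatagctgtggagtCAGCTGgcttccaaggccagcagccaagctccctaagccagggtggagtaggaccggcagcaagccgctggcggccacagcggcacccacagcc
Chrng, chr1:87205561-87205860, plus strand: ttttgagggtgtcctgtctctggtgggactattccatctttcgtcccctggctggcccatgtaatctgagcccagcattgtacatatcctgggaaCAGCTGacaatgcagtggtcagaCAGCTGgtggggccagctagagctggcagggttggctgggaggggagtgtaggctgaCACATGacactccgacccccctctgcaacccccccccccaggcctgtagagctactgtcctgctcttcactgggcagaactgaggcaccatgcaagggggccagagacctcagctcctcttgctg
Des, chr1:75360042-75360341, plus strand: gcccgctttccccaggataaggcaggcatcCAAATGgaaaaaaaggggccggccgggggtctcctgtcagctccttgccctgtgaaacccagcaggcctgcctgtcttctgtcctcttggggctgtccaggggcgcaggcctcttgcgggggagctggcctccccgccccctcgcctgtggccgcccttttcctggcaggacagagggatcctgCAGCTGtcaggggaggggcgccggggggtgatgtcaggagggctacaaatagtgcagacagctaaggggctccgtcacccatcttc

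The Myog window held 2 E-boxes, CACATG beginning at -138 and CAGTTG beginning at -12 from the start. Chrna1 held 3 E-boxes, of which CAGCTG began at -92 and at -44. Chrng also held 3, with CAGCTG at -155 and -132. Des held 2, with CAGCTG at -36. Of all 32851 windows in the table, 72.3% held at least 1 CANNTG and 16.3% held CAGCTG. An E-box in a window of this length is therefore common, and the matches are descriptions of the sequence only.

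Levels below are log2 of the background-corrected and quantile-normalized bead signal, compared within a probe and never between genes. A probe counts as detected where its signal stood above the array's negative controls at a detection p under 0.05. Changes are differences of group means on the log2 scale ± the standard error of the limma fit over all 24 arrays. Their p-values were adjusted over 8945 genes by Benjamini and Hochberg, and a gene was called at an adjusted p under 0.05. Each array had 10404 to 11971 detected probes. In the marker check, the 14 tested genes of fast and general myofibres had summed log2 levels of 18.09 to 18.27 in the 4 mdx groups and 18.18 to 18.31 in wild type, so the muscle label and the markers go together. Dmd, the gene mutated in mdx mice, did not reach the 4 detected arrays needed for a test, so it gave no check of the genotype. Hepatocyte genes stood out on some arrays. The mean log2 level of 9 such genes was 9.84 in mdx running replicate 2, 9.83 and 9.21 in replicates 1 and 2 of the mdx group with both treatments, and 11.23 in wild-type replicate 2, against group medians of 6.71 with running, 5.72 with sActRIIB-Fc, 5.69 with both, 5.77 with PBS and 8.10 in wild type. Wild-type replicates 1 and 3, at 8.15 and 8.05, and running replicate 1, at 8.38, were also above those mdx medians. Alb, the gene for albumin, did not pass the detection filter. Results were therefore also computed without the 4 highest arrays.

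Each gene was read from the probe with the highest mean over all 24 arrays, 20 of which are mdx. Of the 8 genes, Myod1, Myog, by 1 of its 2 probes, and Mymk were higher in PBS-injected mdx muscle than in wild type, none was lower, and the other 5 were not called. Over all tested genes 19.3% were called higher and 18.5% lower in that comparison, which is 1729 higher and 1652 lower. Scaling arrays to equal medians instead gave 2203 higher and 861 lower and moved the median change of all genes to 0.07, against -0.05 with quantile normalization. The same 3 genes were called higher in each of the other 3 mdx groups over wild type, where the share of all genes called higher was 17.8% with running, 19.8% with sActRIIB-Fc and 19.5% with both. None of the 8 was lower there, where 16.9% of all genes were called lower with running, 19.1% with sActRIIB-Fc and 19.7% with both. The 4 comparisons share the wild-type arrays. As the samples are whole muscle, a change in the number of cells of a type and a change in RNA per cell cannot be told apart.

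Myod1, the factor that commits myoblasts, was higher in dystrophic muscle. In mdx mice its log2 level was 6.85, 6.18, 6.87, 6.78 and 6.22 with running, 6.65, 6.75, 6.57, 6.18 and 6.55 with sActRIIB-Fc, 6.24, 6.19, 6.83, 6.71 and 6.61 with both, and 6.64, 6.61, 6.48, 6.30 and 6.82 with PBS, against 6.32, 5.29, 5.36 and 5.47 in wild type. Wild-type replicate 1 was the one that overlapped the mdx mice, and 14 of the 20 mdx arrays lay above it. It was also the only wild-type array on which Myod1 was detected, while all 20 mdx arrays detected it. The log2 change of PBS-injected mdx over wild type was 0.96 ± 0.20 (adjusted p = 0.00044 by limma), a fold of 1.94 with a 95% interval of 1.47 to 2.57. It was 0.96 with running, 0.93 with sActRIIB-Fc and 0.90 with both, each ± 0.20, with adjusted p between 0.00045 and 0.00073. Without background correction these changes were 0.53 with PBS, 0.54 with running, 0.51 with sActRIIB-Fc and 0.50 with both, all still called.

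Myog, which encodes myogenin, had the largest fitted change of the 8 genes by its first probe, and there the groups did not overlap. In mdx mice its log2 level was 8.81, 8.08, 8.60, 8.09 and 6.82 with running, 7.79, 7.90, 8.01, 7.74 and 7.49 with sActRIIB-Fc, 9.01, 8.56, 8.44, 7.07 and 8.10 with both, and 8.22, 8.09, 7.94, 7.56 and 7.95 with PBS, against 6.18, 5.59, 5.28 and 5.54 in wild type. All 20 mdx arrays lay above the highest wild-type array. Of all tested genes, 17.2% had every PBS-injected mdx array above every wild-type array, 15.1% with running, 17.4% with sActRIIB-Fc and 13.4% with both. The log2 change was 2.30 ± 0.32 in PBS-injected mdx muscle (adjusted p = 5e-06 by limma), a fold of 4.94 with a 95% interval of 3.11 to 7.84. With both treatments it was 2.58 (adjusted p = 1e-06), with running 2.43 (3.1e-06) and with sActRIIB-Fc 2.14 (1.3e-05), each ± 0.32. In wild type this probe was detected on 3 of 4 arrays. Its mean there, 5.65, lay near the arrays' detection limits of 5.19 to 5.57, so the fold depends on how background is handled.

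Myog has a second probe, and it did not show this difference. Its mean log2 level was 5.92 ± 0.29 with running, 5.91 ± 0.24 with sActRIIB-Fc, 6.05 ± 0.19 with both, 6.21 ± 0.19 with PBS and 5.93 ± 0.38 in wild type (SD, n = 5 each and 4), and every array detected it. In the fit over all 12623 probes, its log2 change over wild type was -0.01 with running (adjusted p = 0.96), -0.02 with sActRIIB-Fc (0.93), 0.12 with both (0.61) and 0.28 with PBS (0.2). The 2 Myog probes disagreed. The first was taken for its mean over all arrays, which its mdx levels raise: in wild type its mean was 5.65, below that of the second. All other statements on Myog hold for the first probe only. Without background correction the first probe changed by 1.53 with PBS, 1.65 with running, 1.39 with sActRIIB-Fc and 1.78 with both, all still called. Scaling to equal medians, or leaving out wild-type replicate 3, brought the second probe past the threshold with PBS, at 0.49 (adjusted p = 0.024) and 0.46 (0.034).

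Mymk, the gene for the fusion protein myomaker, was measurable in dystrophic muscle and not well above background in wild type. Its log2 level in mdx mice was 6.80, 6.68, 6.62, 6.77 and 5.07 with running, 5.89, 6.53, 6.44, 6.83 and 6.60 with sActRIIB-Fc, 6.78, 6.86, 6.34, 5.38 and 6.50 with both, and 6.55, 6.62, 6.05, 5.71 and 6.67 with PBS, against 4.51, 4.53, 4.51 and 4.52 in wild type. It was detected on 19 of the 20 mdx arrays and on 0 of the 4 wild-type arrays. The exception among mdx mice was replicate 5 of the running group. All 20 mdx arrays still lay above the wild-type arrays, beside the shares of all genes given for Myog. Mymk passed the detection filter through mdx arrays alone, so a fall could not have been called. Myod1 and the first Myog probe were detected on 1 and 3 wild-type arrays, fewer than the 4 the filter needs. They too passed it only with mdx arrays, so a fall to below detection could not have been called for them either.

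As wild type gives only a bound, the fold of Mymk was taken against the lowest signal of a detected probe on the wild-type arrays. It was at least 1.82-fold higher with running, at least 1.91-fold with sActRIIB-Fc, at least 1.80-fold with both and at least 1.73-fold with PBS. The fitted log2 change, which is no bound, was 1.87 with running (adjusted p = 4.2e-05 by limma), 1.94 with sActRIIB-Fc (2.3e-05), 1.85 with both (3.9e-05) and 1.80 with PBS (5.9e-05), each ± 0.31. Without background correction it was 1.21 with running, 1.23 with sActRIIB-Fc, 1.19 with both and 1.15 with PBS, all still called. The second Mymk probe was likewise detected on no wild-type array. It was called higher in all 4 mdx groups, at least 1.54-fold with running, 1.65-fold with sActRIIB-Fc, 1.41-fold with both and 1.41-fold with PBS. Over all probes 16.6% were called higher with running, 18.4% with sActRIIB-Fc, 18.2% with both and 17.8% with PBS.

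**Figure D1:**
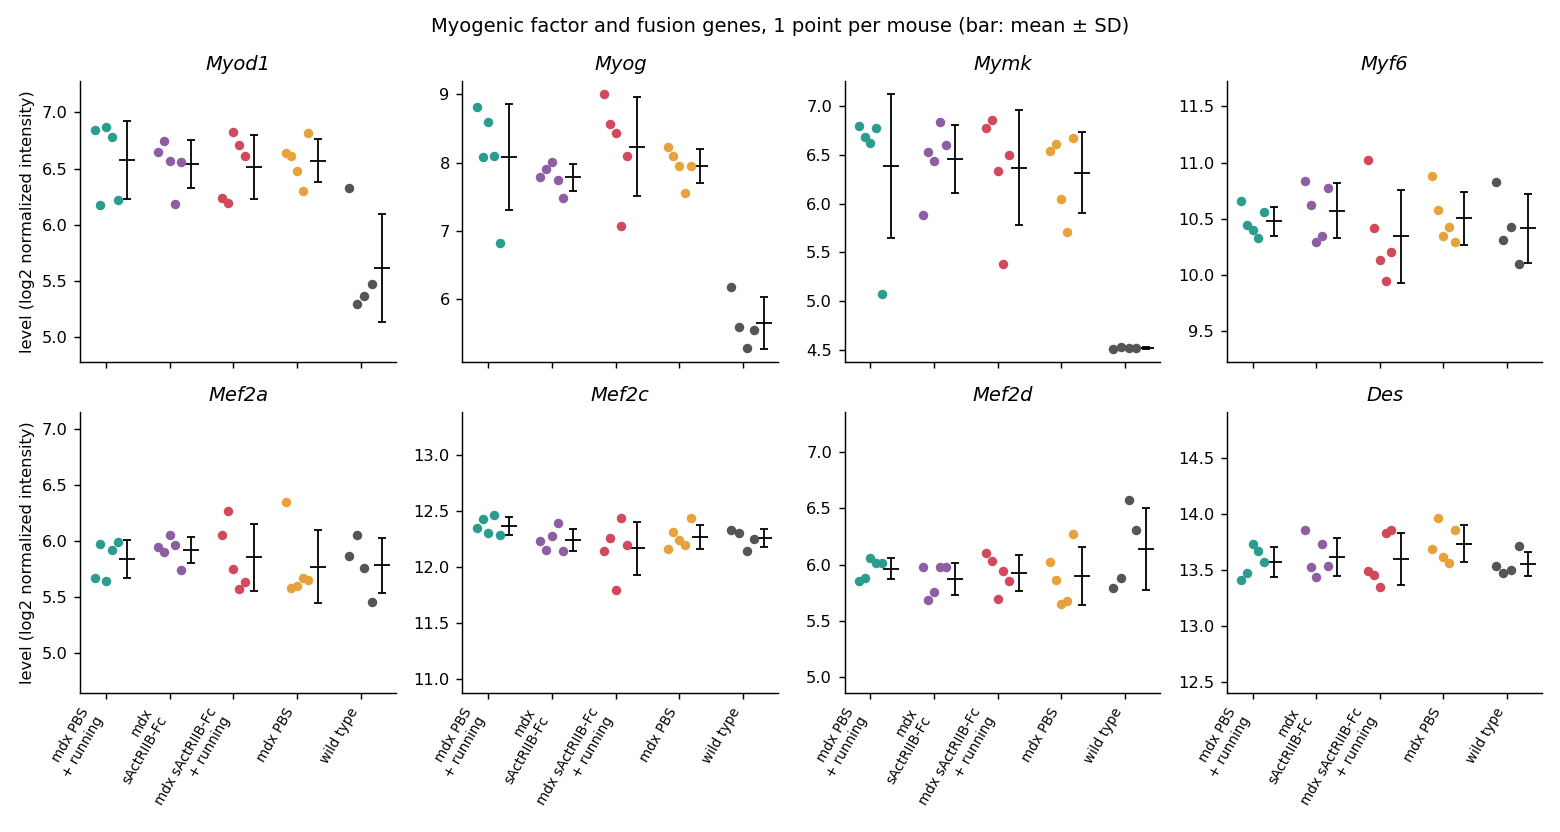
Log2 normalized level of each of the 8 genes on 24 arrays, 1 point per mouse, with the group mean ± SD as a bar, for the brightest probe of each gene and an axis of its own. Myog and Mymk stand above wild type in all 20 mdx mice and Myod1 in 14, while the groups overlap for Myf6, the MEF2 factors and Des.

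Myf6 was not called different in any of the 4 comparisons. This gene, the factor of mature fibres, averaged 10.48 ± 0.13 with running, 10.57 ± 0.25 with sActRIIB-Fc, 10.34 ± 0.42 with both and 10.51 ± 0.24 with PBS, against 10.41 ± 0.31 in wild type (SD). Its log2 change in PBS-injected mdx muscle was 0.09 with a 95% interval of -0.28 to 0.46 (adjusted p = 0.72 by limma), so that a fold above 1.38 or below 0.825 lay outside the interval. Myf5, the other factor of the family, and Pax7, the transcription factor of satellite cells, each had 1 probe and were detected on 0 of 24 arrays. Mymx, which encodes myomixer, the partner of myomaker in fusion, is not analysed here.

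Among the MEF2 factors, Mef2a and Mef2d had signals not far above the arrays' detection limits of 5.19 to 5.57, and their groups overlapped. Mef2a averaged 5.84 ± 0.17 with running, 5.92 ± 0.11 with sActRIIB-Fc, 5.86 ± 0.30 with both, 5.77 ± 0.32 with PBS and 5.78 ± 0.25 in wild type. Its change in PBS-injected mdx muscle was -0.01 (95% interval -0.34 to 0.31, adjusted p = 0.96), and its second probe gave 0.05 (adjusted p = 0.84). Mef2d averaged 5.96 ± 0.09 with running, 5.87 ± 0.14 with sActRIIB-Fc, 5.92 ± 0.16 with both, 5.90 ± 0.26 with PBS and 6.14 ± 0.37 in wild type. Its log2 change was between -0.26 and -0.17 in the 4 comparisons, with adjusted p of 0.15 to 0.37. When arrays were scaled to equal medians instead of quantile-normalized, those changes lay between -0.01 and 0.08, so that Mef2d has no settled direction.

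Mef2c, the MEF2 factor with 3 detected probes, gave different answers by probe. Its brightest probe read 12.36 ± 0.08 with running, 12.24 ± 0.10 with sActRIIB-Fc, 12.17 ± 0.24 with both and 12.27 ± 0.11 with PBS, against 12.26 ± 0.08 in wild type, and was called in none of the 4 comparisons. The second probe read 11.78, 12.01, 11.92, 11.95 and 12.04 with running, 12.07, 12.01, 11.85, 12.05 and 11.83 with sActRIIB-Fc, 11.74, 11.84, 11.38, 11.87 and 11.76 with both, and 11.99, 11.99, 11.95, 11.86 and 11.80 with PBS, against 11.56, 11.81, 11.37 and 11.37 in wild type. Wild-type replicate 2, the array highest in hepatocyte genes, was the highest of its group and reached the lowest PBS-injected array, and replicate 3 of the mice with both treatments lay as low as wild type.

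The log2 change of this second Mef2c probe was 0.41 ± 0.11 with running (adjusted p = 0.0044), 0.44 ± 0.11 with sActRIIB-Fc (0.0025) and 0.39 ± 0.11 with PBS (0.006), and 0.19 ± 0.11 with both treatments, which was not called (0.17). Scaling to equal medians ended the call with PBS (adjusted p = 0.074) and with sActRIIB-Fc (0.054). The third probe passed with running (0.37, adjusted p = 0.046), and with sActRIIB-Fc (0.36) at the limit of 0.05 itself. With running it was called in 5 of 11 other settings and in 4 of 9 fits that left out an array, and with sActRIIB-Fc in 6 of 11 and 2 of 9. The second probe passed with both treatments when their replicate 3 (0.28, adjusted p = 0.037) or wild-type replicate 2 (0.28, 0.047) was left out. The probes disagree, and Mef2c by its brightest probe was not called.

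Des, the gene for desmin, had levels that overlapped between mdx and wild-type mice. It averaged 13.57 ± 0.14 with running, 13.62 ± 0.17 with sActRIIB-Fc, 13.59 ± 0.23 with both and 13.73 ± 0.17 with PBS, against 13.55 ± 0.11 in wild type. The log2 change in PBS-injected mdx muscle was 0.18 ± 0.12 (adjusted p = 0.24), with a 95% interval of -0.06 to 0.42.

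**Figure D2:**
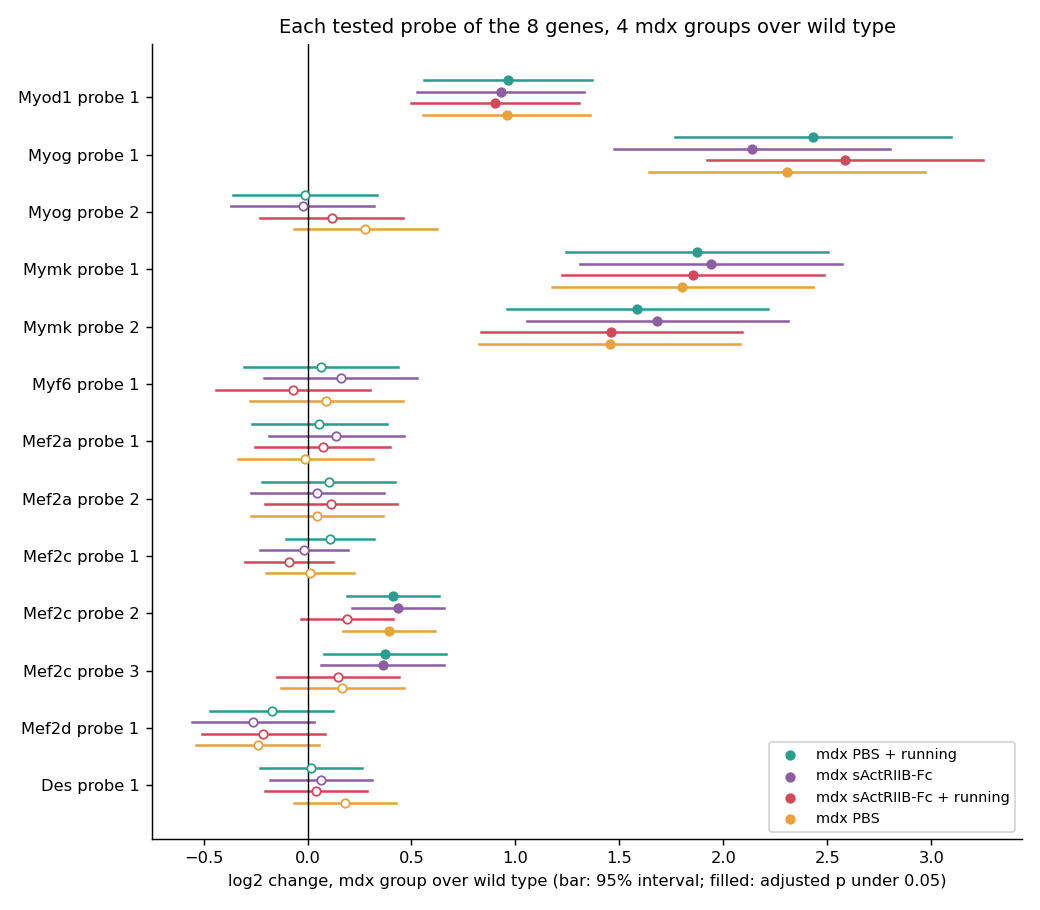
Log2 change of each of the 13 tested probes in 4 mdx groups over wild type, with 95% intervals and filled points where the adjusted p was under 0.05. Myod1, the first Myog probe and both Mymk probes lie to the right of 0 in all 4 groups, the second Myog probe lies near 0, and the Mef2c probes differ among themselves.

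Within mdx muscle no effect of running or sActRIIB-Fc on the 8 genes passed the threshold. In the 8 comparisons among mdx groups, which were 5 between pairs of groups, both averaged effects and their interaction, 0 of the 8 genes were called by limma, and by their brightest probes 0 passed an unadjusted p of 0.05. The lowest adjusted p of these was 0.67. Other probes of Mef2c had 95% intervals that left out 0, though none was called in the fit over all probes. Its second probe gave -0.25 in mice with both treatments over sActRIIB-Fc alone (-0.45 to -0.038, adjusted p = 0.61 by limma) and -0.22 over running alone (-0.43 to -0.014, 0.92). The third probe gave an interaction of -0.42 (-0.81 to -0.027, 0.94). Over all genes, 1 of 8945 (0.0112%) was called for running over PBS and 1 (0.0112%) for the averaged effect of running, and 0% in the other 6, while 282 to 741 genes had an unadjusted p under 0.05. The groups of every one of the 8 genes overlapped in the 5 comparisons between pairs. Of all genes, the arrays lay wholly above in 0.492% and wholly below in 0.391% for running over PBS, 0.481% and 0.447% for sActRIIB-Fc over PBS, and 0.425% and 0.302% for both over PBS. They did so in 0.0894% and 0.19% for both over running, and in 0.458% and 0.358% for both over sActRIIB-Fc.

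With 5 mice a group the 95% intervals of these changes were wide for Myog and Mymk. For Myog the log2 change over PBS-injected mdx mice was 0.13 with running (95% interval -0.50 to 0.75), -0.17 with sActRIIB-Fc (-0.80 to 0.46) and 0.28 with both (-0.35 to 0.91). The upper ends for Myog are folds of 1.69 with running and 1.88 with both treatments. For Mymk it was 0.07 with running (-0.53 to 0.67), 0.14 with sActRIIB-Fc (-0.46 to 0.73) and 0.05 with both (-0.55 to 0.65). For Myod1 it was 0.01 with running (-0.37 to 0.39), -0.03 with sActRIIB-Fc (-0.41 to 0.35) and -0.06 with both (-0.44 to 0.32).

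Myf6, the MEF2 factors and Des had narrower intervals. For Mef2a and Mef2d, whose signals stood near the detection limits, a narrow interval of the signal need not bound the change in RNA. The change of Myf6 over PBS was -0.03 with running, 0.07 with sActRIIB-Fc and -0.16 with both, and that of Mef2a 0.07 with running, 0.15 with sActRIIB-Fc and 0.08 with both. Mef2d changed by 0.07 with running, -0.02 with sActRIIB-Fc and 0.03 with both. Des had -0.16 with running (-0.39 to 0.065), -0.12 with sActRIIB-Fc and -0.14 with both. The lowest unadjusted p of the 8 genes by their brightest probes was 0.051, for Mef2c in mice with both treatments over mice with running alone, at a log2 change of -0.20 (95% interval -0.39 to 0.0013, adjusted p = 0.9 by limma). With running averaged over 10 arrays against 10, Myog changed by 0.29 (-0.16 to 0.73, adjusted p = 0.83). With sActRIIB-Fc averaged likewise, it changed by -0.01 (-0.45 to 0.44). The interaction of both treatments was 0.32 for Myog (-0.57 to 1.21) and -0.16 for Mymk.

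**Figure D3:**
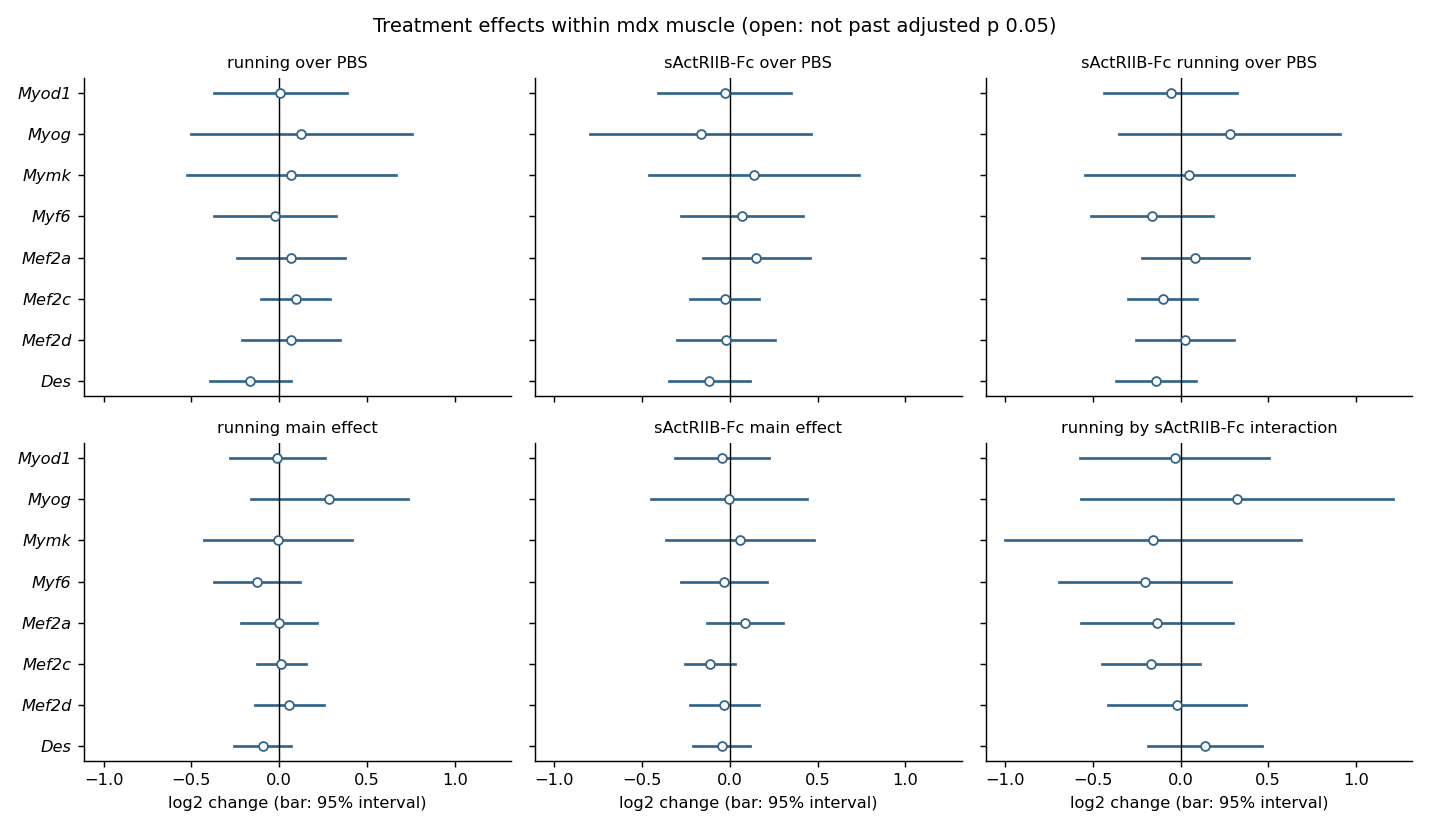
Log2 change of the 8 genes, by their brightest probes, in 6 comparisons among mdx groups, with 95% intervals. All intervals span 0, and those of Myog and Mymk are the widest.

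The order of group means is given as a description and is no test of a treatment effect. For Myog it ran from both treatments through running, PBS and sActRIIB-Fc to wild type, and for Mymk from sActRIIB-Fc through running, both and PBS to wild type. The 4 mdx means spanned 0.45 for Myog, 0.14 for Mymk and 0.06 for Myod1 on the log2 scale, against mean SDs within groups of 0.47, 0.42 and 0.30. These SDs are of single mice. The standard error of a difference between 2 mdx means was 0.30 for Myog, 0.29 for Mymk and 0.18 for Myod1. In a sorted order neighbours are the closest groups, so small steps between them say nothing on treatment. The step from the lowest mdx mean to wild type was larger than the SD for each of these genes.

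Genes of early muscle differentiation, many of them targets of Myod1 and Myog, were higher in dystrophic muscle. Of 24 tested, 19 were called higher and 0 lower in PBS-injected mdx mice, beside 19.3% and 18.5% of all genes, with a median log2 change of 1.55 against -0.05 over all genes. This list and those that follow were chosen with earlier results of these data known, so an excess over all genes is no independent result. The counts of the lists that follow are for PBS-injected mdx mice over wild type, with the same 19.3% and 18.5% of all genes behind them. The 3 with the largest changes were Myh8, the perinatal myosin heavy chain, Chrng, the fetal subunit of the acetylcholine receptor, and Actc1, the actin of developing and cardiac muscle. Myh8 changed by 5.74 ± 0.32 (adjusted p = 3.6e-12) and Actc1 by 3.95 ± 0.17 (7.9e-14). Chrng was detected on 0 of 4 wild-type arrays and was at least 11.5-fold higher (adjusted p = 6.4e-09). It passed the detection filter through mdx arrays alone, so a fall could not have been called. Chrna1, whose promoter is shown above, changed by 2.29 ± 0.22 (adjusted p = 3.8e-08).

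Myh8, Chrng and Actc1, picked for the size of their change, lay above wild type on all 20 mdx arrays. Taking 1 mdx group at a time, 13.4% to 17.4% of all tested genes lay wholly above wild type. The share over all 20 arrays together was not computed. Of the list, 19 genes were called higher with running, 19 with sActRIIB-Fc and 19 with both treatments, and the median log2 changes were 1.48, 1.62 and 1.41. With both treatments 2 were called lower, Ankrd2, a stretch-responsive fibre protein, and Hjv, a BMP co-receptor of muscle and liver, named here after their values were seen. Of the 19 genes called higher with PBS, 16 had a promoter window. A CANNTG was found in 12 of them and CAGCTG in 5, beside 72.3% and 16.3% of all windows. The MEF2 consensus, searched on both strands, was found in 3, beside 3.19% of all windows. A gene counted when any of its windows held the site, while the shares are per window. The counts and shares are therefore not directly comparable, and enrichment was not tested.

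Satellite cell genes were called higher in 5 of 9 tested and lower in 0, with a median of 0.60. The list had 17 genes on the array, and those not tested were detected on too few arrays. Sdc3, a heparan sulfate proteoglycan of satellite cells, changed by 1.24 ± 0.13 (adjusted p = 9.8e-08). Cxcr4, a chemokine receptor, and Megf10, a receptor of satellite cells, were detected on no wild-type array and were at least 1.75-fold and 1.42-fold higher. Both thus passed the detection filter through mdx arrays alone, so a fall could not have been called. Cxcr4 and Sdc3 are also made by leukocytes and other cells.

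Where called, fusion genes other than Mymk were mostly higher. Of 20 tested, 8 were higher and 1 lower, beside 19.3% and 18.5% of all genes, with a median of 0.20, and 11 were not called. Ncam1, a neural cell adhesion molecule of myoblasts, changed by 2.25 ± 0.20 (adjusted p = 8.1e-09), Vcam1, an adhesion molecule, by 1.60 ± 0.24 (9.8e-06), and Anxa5, which binds exposed phosphatidylserine, by 1.31 ± 0.16 (1e-06). Stab2, a phosphatidylserine receptor, fell by 0.97 ± 0.17 (8.9e-05).

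Genes of the desmin network were higher in 10 of 17 and lower in 2, with a median of 0.43, beside the uncalled Des itself. The 3 largest rises were in other intermediate filaments, Vim with 1.88 ± 0.24 (adjusted p = 2e-06), Krt18, detected on 1 of 4 wild-type arrays, with 1.30 ± 0.25 (0.00024) and Nes with 1.16 ± 0.14 (1.1e-06). Fhl3, a LIM protein, and Synm, which encodes synemin, a partner of desmin, had changes of -0.53 ± 0.20 (0.04) and -0.52 ± 0.18 (0.024). Vim is abundant in fibroblasts and macrophages as well, and Nes belongs to the early differentiation list too.

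Partners and inhibitors of the helix-loop-helix factors were higher in 5 of 16 and lower in 1, beside 19.3% and 18.5% of all genes, with a median of 0.18. Msc, which encodes musculin, a repressor that competes for E-boxes, changed by 1.81 ± 0.20 (adjusted p = 2.6e-07), Hes6 by 0.82 ± 0.16 (0.00028) and Mdfic by 0.82 ± 0.19 (0.0014). Zbtb18, a repressor induced by Myod1 in mouse myoblasts, fell by 0.55 ± 0.12 (0.001).

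Of 14 other myogenic transcription factors and cofactors, 1 was higher, 2 were lower and 11 were not called, with a median of 0.08. Both shares lie below the 19.3% and 18.5% of all genes. The one that rose was Ankrd1, a stress-induced cofactor, with a log2 change of 3.05 ± 0.16 (adjusted p = 1e-12). Lbx1, the homeobox factor of migrating muscle precursors, changed by -0.84 ± 0.24 (0.0067) and Myocd, a cofactor of SRF in smooth muscle, by -0.35 ± 0.12 (0.028).

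Of 18 regulators of MEF2 activity 2 were higher, 3 lower and 13 not called, with a median of -0.18. Both shares lie below the 19.3% and 18.5% of all genes, so the counts are no result about this list. Prkd2, a kinase of class II histone deacetylases, changed by 0.45 ± 0.12 (adjusted p = 0.0049) and Akap6, a scaffold, by 0.43 ± 0.16 (0.032). Mapk14, the p38α kinase that activates MEF2, changed by -0.47 ± 0.17 (0.029), Mapk12 by -0.35 ± 0.14 (0.047) and Ppp3cb, a catalytic subunit of calcineurin, by -0.34 ± 0.12 (0.025). The calls of Myocd, Akap6, Mapk14, Mapk12, Ppp3cb, Fhl3 and Synm were each lost in 5 to 12 of 19 or 20 alternatives, among them fits without 1 array. Of the 27 genes named for the size of their change with PBS, the other 20 kept theirs in all 20, and the alternatives were not run for Chrna1, Ankrd2 and Hjv. No gene of any list was called in a comparison among mdx groups.

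**Figure D4:**
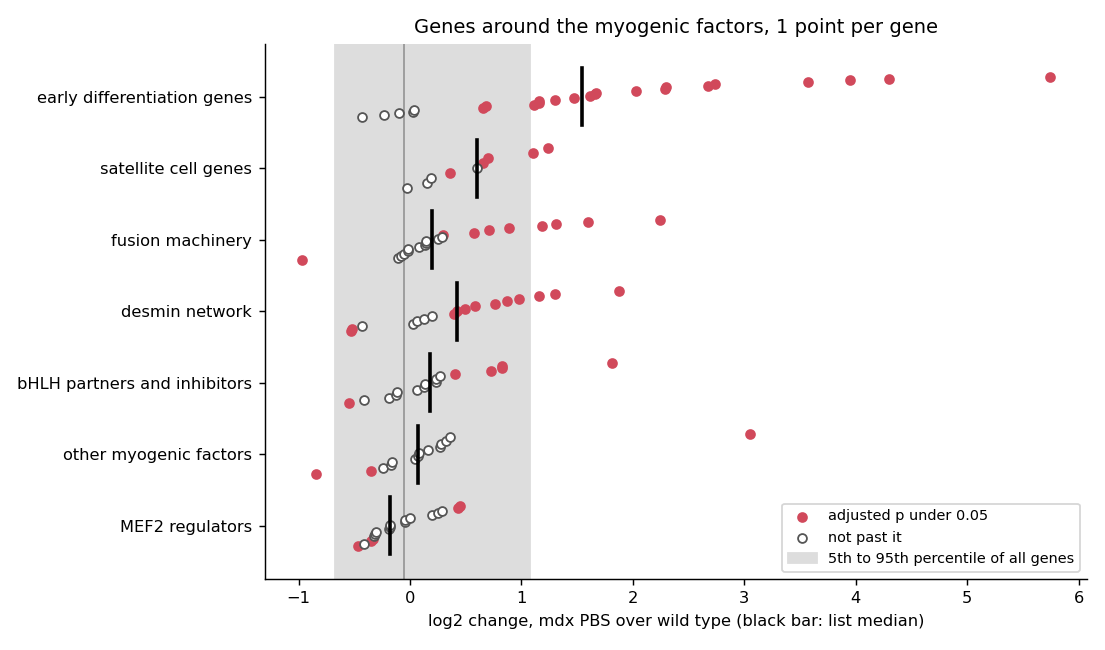
Log2 change in PBS-injected mdx muscle over wild type of the tested genes of 7 lists, 1 point per gene, filled where called, with the list median as a black bar and the range from the 5th to the 95th percentile of all genes (-0.68 to 1.08) in grey. The early differentiation genes reach furthest to the right, with 19 of 24 called higher, and the regulators of MEF2 lie around 0.

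Most tested markers of macrophages and fibroblasts were also higher, while those of the other cell types mostly were not. Of 12 tested macrophage markers 11 were higher in PBS-injected mdx muscle, with a median log2 change of 2.77. Their summed log2 level was 13.63 to 14.69 with running, 13.94 to 14.73 with sActRIIB-Fc, 13.14 to 15.78 with both and 14.06 to 14.88 with PBS, against 10.84 to 11.44 in wild type. Itgam, a defining macrophage marker, did not pass the detection filter. All 7 tested fibroblast markers were higher, with summed levels of 14.02 to 14.40 with PBS against 13.66 to 13.86 in wild type. With sActRIIB-Fc and with both treatments 6 of these were called higher. Postn, another fibroblast marker on the array, did not pass the detection filter. Of 14 myofibre markers 0 were higher and 1, Mb, was lower, and of 8 endothelial markers 0 were called. Of 9 smooth muscle and pericyte markers 1 was higher and 3 lower, of 3 adipocyte markers 2 were lower, both Schwann cell markers were lower, and the 1 tested marker of T and B cells was not called. The part of cell composition in the changes of Myod1, Myog and Mymk was not tested.

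Hepatocyte markers, 0 of 9 called, had summed levels of 9.56 to 11.66 with PBS and 9.63 to 14.94 in wild type. Leaving out the 4 highest arrays keeps wild-type replicates 1 and 3. Without the 4 arrays highest in them, the log2 changes with PBS were 0.85 for Myod1 (adjusted p = 0.0018 by limma), 2.28 for Myog (3.5e-05) and 1.81 for Mymk (3e-04), and the same 3 genes were called in all 4 comparisons over wild type.

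Genes whose level followed these 3 most closely over the 24 arrays were picked by the root mean square difference of log2 levels, after each gene was centred on its own mean. For Myod1 they were Spsb1 (0.23), Rbms1 (0.23) and Rap2a (0.24), against a median of 0.51 over all genes. Spsb1 encodes an adaptor of a ubiquitin ligase, Rbms1 an RNA-binding protein and Rap2a a small GTPase. For Myog they were Tubb2b, a tubulin (0.31), Chrna1 (0.31) and Aif1, a marker of macrophages (0.32), against a median of 1.05. For Mymk they were Casq2, the cardiac and slow-fibre calsequestrin (0.28), Ddc, an aromatic amino acid decarboxylase (0.33), and Ncam1 (0.35), against a median of 0.87. The step between mdx and wild type is part of this likeness.

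Within the mdx groups, Myog and Mymk were the pair of genes that varied together most between mice. Over the 20 mdx arrays, each gene taken relative to its group mean, r was 0.818 (permutation p = 0.003, 0.084 adjusted over 28 pairs) and rho 0.617 (p = 0.015, 0.42 adjusted). None of the 28 pairs passed an adjusted p of 0.05. The relation rested on replicate 5 of the running group and replicate 4 of the group with both treatments, the mice lowest in both genes: r was 0.493 without them. When the group means were also taken without them, r over 18 arrays was 0.342 (permutation p = 0.14).

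Those 2 mice stood apart in other genes too, in both directions. In running replicate 5, Myog stood at 6.82 and Mymk at 5.07, and in replicate 4 of the group with both treatments at 7.07 and 5.38. Chrng stood at 7.49 and 7.71 on these arrays, against 8.26 to 9.73 on the other 18 mdx arrays. The mean log2 level of the 24 early differentiation genes was 10.02 and 10.11, the lowest 2 of the 20 mdx arrays, and still above the 8.63 to 8.77 of wild type. Their macrophage markers, with summed levels of 13.63 and 13.14, were also the lowest 2 of the mdx arrays. Actc1 stood at 14.24 and 13.85, within the range of 13.08 to 14.35 of the other mdx arrays. In other lists these 2 arrays were among the highest. Running replicate 5 ranked 20 and the other array 19 of the 20 mdx arrays, counted from the lowest, in the mean log2 level of the other myogenic transcription factors. They ranked 20 and 18 in the regulators of MEF2 and 18 and 20 in the endothelial markers. The part of macrophage content in the low levels was not tested. Without these 2 arrays the log2 change over wild type was 2.75 for Myog and 2.20 for Mymk with running, and 2.88 and 2.10 with both treatments. As the arrays were picked for their low Myog and Mymk, leaving them out could only raise these changes.

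**Figure D5:**
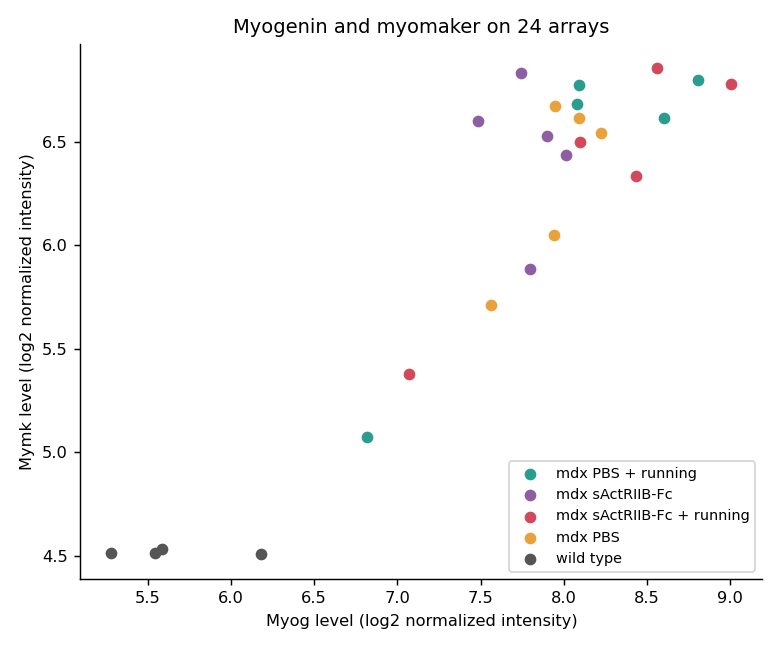
Log2 level of Mymk against that of Myog on 24 arrays, 1 point per mouse, coloured by group. The wild-type mice lie at the lower left, 2 mdx mice of the running groups lie between them and the rest, and the other 18 mdx mice lie at 7.49 or above on the Myog axis.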

How the data were processed

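RNA of 24 gastrocnemius muscles was hybridised to Illumina bead arrays after Trizol extraction, DNase treatment and biotin labelling, per the labels' protocols. The deposited tables hold bead intensity per probe, which was not yet normalized, and a detection p-value whose steps fit 798 negative controls. A second deposited table holds log2 values, which matched the log2 of the quantile-normalized intensity. The software that made them is not given in the sources used here.

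Intensities were corrected with normexp (limma 3.58.1, R 4.3.3, offset 16), quantile-normalized and taken to log2. Probes with a detection p under 0.05 on at least 4 arrays were kept (12623), and each gene was read from its brightest probe on average (8945 genes). Of 25697 probes 23978 had 1 symbol and 1719 none. limma fitted 1 mean per group, with Benjamini-Hochberg adjustment over all genes and a limit of 0.05. The number of arrays limits the precision. The labels do not say that replicates share a litter or day, and p-values measure the spread between these mice. Fits were tested on simulated data.

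From each list the text names up to 3 called genes per direction with the largest change in PBS-injected mdx over wild type. For Myod1, Myog and Mymk it names the 3 genes of nearest pattern. The members and lists were chosen with earlier results of these data known. Alternatives covered background correction, scaling, filters, the deposited log2 values, the replicate block, covariates and arrays left out. Promoters are RefSeq's, on GRCm38.p6.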

Additional observations from a re-analysis of the deposited data

Results flagged for a closer look

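In 65 checks of a gene's probe within a group of 4 or 5 arrays, 6 had an array far from the others, where chance gives about 1 in 20. Mymk stood at 5.07 by its first probe and 4.82 by its second in running mdx replicate 5, below the other 4 mice of that group. Mef2c probe 2 stood at 11.38 in replicate 3 of the mdx mice with both treatments, the lowest of its group. Mef2a stood high on 3 arrays: probe 1 at 6.35 in replicate 1 of PBS-injected mdx mice, probe 2 at 6.20 in replicate 1 with sActRIIB-Fc, and probe 2 at 6.21 in replicate 1 with both treatments. All 3 are replicate 1, the number with the highest raw median signal in all 5 groups, and the part of this in the levels was not tested.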

How the results depend on the processing

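The 12 calls of Myod1, Myog and Mymk over wild type kept their direction and side of the threshold in all 252 alternatives, with Myog read from its first probe. Under the same main settings its second probe was not called in any of the 4 comparisons. Of 84 results that were not called, 1 passed in 1 of 2068 alternatives: Mef2d with sActRIIB-Fc over wild type without wild-type replicate 1 (-0.38, adjusted p = 0.048). The cause was not tested. Leaving out 1 array at a time gave changes with PBS of 0.85 to 1.19 for Myod1, 2.18 to 2.48 for Myog and 1.71 to 1.95 for Mymk. The number of called list genes, 58, lay between 48 and 64 in 18 alternatives and was 52 without the 4 arrays high in hepatocyte genes. For these lists, the block, the covariates and the arrays left out were chosen after seeing the data, as was leaving out the 2 mdx arrays lowest in Myog and Mymk. That last setting is among the 252 alternatives, and it could only raise the changes of Myog and Mymk in the groups it touched.

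The replicate numbers were also fitted as a block. Same-numbered arrays of different groups correlated between -0.44 and 0.651, with r over 0.1 in 25 of 46 pairs, against 44 of 184 pairs with other numbers. The mean r was 0.036 to 0.285 by number, against -0.035 for pairs with other numbers. As not every pair passed 0.1, the numbers were not taken to pair the mice, a rule that cannot exclude pairing. They may still mark something shared: replicate 1 had the highest raw median signal and the highest Myf6 in all 5 groups, which was not tested further. With the block, PBS-injected mdx over wild type gave 0.96 for Myod1, 2.41 for Myog and 1.85 for Mymk, with 1854 genes higher and 1887 lower, and the block changed no call of the 8 genes. Signal near background limits Mymk, Myod1 and Myog in wild type. Folds there are bounds, rest on few detected arrays or, for Myog, depend on the background correction.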
